A study of Mus musculus with 18 samples.

Results

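The regions described here are GATA6 binding regions near 5 genes of FGF signalling in mouse embryonic stem (ES) cells: the ligand gene Fgf4, the receptor genes Fgfr1 and Fgfr2, the inhibitor gene Spry4 and the target gene Etv5. A region of the deposited table was a member when its GATA6 summit, the base with the highest GATA6 signal, lay in a window set around the gene on the mm10 assembly. The windows were 204 kb wide for Fgf4, 258 kb for Fgfr1, 305 kb for Fgfr2, 215 kb for Spry4 and 259 kb for Etv5. They held 55 of the 42403 regions of the table, with 5 at Fgf4, 6 at Fgfr1, 15 at Fgfr2, 16 at Spry4 and 13 at Etv5.

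The cells were KH2 ES cells of the C57BL/6 x 129/Sv genotype with a doxycycline (Dox)-inducible gata6 cassette, grown with LIF on feeder cells, so that untreated cells and Dox-treated cells carried the same transgene. The lines are clones picked after transfection of the cassette, and it is the transgene that starts the response. The series itself has 18 MNase-seq libraries, with 3 untreated (d0) and 3 at each of 8, 16, 24, 48 and 96 h of 1 µg/mL Dox. None of the table's columns is an MNase library. The values below are the authors' pooled signal in each region, which counts ChIP-seq reads of GATA6, SOX17, OCT4, SOX2 and ESRRB or short ATAC-seq fragments inside the region, with correction for library size. They come with 1 value per assay and time, also for XEN cells, an extraembryonic endoderm line, so no SD and no test could be given, and the table holds no read depths. By the study's methods most ChIP values pool a pair of chromatin preparations, whereas GATA6 at d0, on which every GATA6 change from d0 rests, comes from a single one, as does OCT4 in XEN cells. The histone mark and DNase values below stand apart from these. They are labelled as ENCODE data, and by the study's methods the histone reads were of ES cells from ENCODE, not of the cells described here.

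FGF4 is secreted by ES cells and by the epiblast of the blastocyst, and it acts on the receptor tyrosine kinases FGFR1 and FGFR2, which switch on the ERK kinase cascade. In the inner cell mass this signal is needed for primitive endoderm (PrE), the lineage that GATA6 specifies, and FGFR2 is known as the receptor enriched in PrE. Spry4 encodes a Sprouty protein that dampens the signal as feedback, and Etv5 encodes an ETS transcription factor whose transcription depends on it.

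The best GATA6 motif of 6 regions that carry the results below is shown in its genome context, read 5′ to 3′ on the strand of the motif. In these lines distance is from the gene start, with a minus sign for upstream, and capitals mark the motif. The best motif need not lie under the summit: in the order shown, motif midpoints were 984, 275, 58, 154, 52 and 75 bp from the GATA6 summit. The coordinates that follow are of the printed bases on GRCm38, the build of mm10, and the sequence is from the RefSeq genome.
Fgf4 −22.9 kb, plus strand, chr7:144837493-144837521: aggcccttGGCAGATAAGGAActgaggtc
Fgfr1 −3.57 kb, minus strand, chr8:25515447-25515475: cagggaagTGGAGATAAGAGTagccaact
Fgfr2 +126 kb, plus strand, chr7:130141234-130141262: gcataactTAGAGATAACAGGagccccca
Fgfr2 +118 kb, minus strand, chr7:130149288-130149316: ggaaaataACCAGATAAGATGcaattgtg
Etv5 +65.4 kb, plus strand, chr16:22374089-22374117: ttctctttTAGAGATAACACAgttagcca
Etv5 −47.8 kb, minus strand, chr16:22487322-22487350: aaatggtgTTGAGATAAAATGtggggaga

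The best motifs of the partner factors are shown for regions whose SOX17, OCT4, SOX2 or ESRRB signal is described below: SOX17 at the Fgfr2 region with the highest GATA6 signal and at the 2 Etv5 regions with the highest GATA6 signal at 96 h, OCT4:SOX2 at the Fgfr2 start, and ESRRB at the Etv5 region with the highest ESRRB motif score of all members. Capitals again mark the motif. In the order shown, motif midpoints were 144, 326, 471, 83 and 12 bp from the GATA6 summit.
SOX17 at Fgfr2 +118 kb, minus strand, chr7:130149278-130149306: cagataagatGCAATTGTGaagaagtagt
SOX17 at Etv5 +65.4 kb, plus strand, chr16:22374467-22374495: atcctacagcACCATTGTGtctttctgat
SOX17 at Etv5 −47.8 kb, minus strand, chr16:22487868-22487896: ctaaataaatTGCATTGTGtgtatggact
OCT4:SOX2 at Fgfr2 +2.01 kb, minus strand, chr7:130264699-130264727: gaatgtcAATTAAAATGCAGATttctcag
ESRRB at Etv5 +26.5 kb, plus strand, chr16:22413053-22413081: tcttacagcTCAAGGTCAAGaaaacccgc

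At Fgfr2 +118 kb the best GATA6 and the best SOX17 motif lay on the same strand and overlapped by 1 base, so that both lines above read through the same stretch. The 2 best motifs overlapped in 2 of the 37 members with both, the other being a weak Spry4 region, and in 2.64% of the 26564 regions of the table with both. The median gap between them was 201 bp in members and 133 bp in the table.

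A GATA6 motif was present in 51 of the 55 members, against 89.7% of all regions. The best score of members ran from 6.34 to 15.0 with a median of 9.94, where all regions had a median of 10.2. A SOX17 motif was found in 39 members (69.2% of all regions), an OCT4:SOX2 motif in 39 (71.5%) and an ESRRB motif in 23 (36.3%). The 4 members without a GATA6 motif lay at Fgfr2 +200 kb and +2.01 kb, Spry4 +25.0 kb and Etv5 +36.8 kb. The Spry4 +25.0 kb region held no motif of any of the 4 matrices, though it was accessible and was classed as bound by SOX17.

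The authors sorted regions by GATA6 kinetics into Early&Constant (Early below), Late and Transient. Of the members 32 were Transient (38.4% of all regions), 15 Early (28%) and 8 Late (33.6%). These classes were made from the same GATA6 values that are described below, so the kinetics of a class are not a separate result. GATA6 signal was highest at 8 or 16 h in 43 members (50.8% of all regions), at 24 h in 1, at 48 h in 2 and at 96 h in 9. All 6 Fgfr1 regions were Transient, and Etv5 had more Early (6) than Transient regions (5).

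SOX17, an endoderm transcription factor, was classed as bound at 24 members (44.5% of all regions): 9 at Spry4, 7 at Fgfr2, 6 at Etv5, 2 at Fgf4 and 0 at Fgfr1. It was bound at 11 of the 15 Early, 7 of the 8 Late and 6 of the 32 Transient members. The shares in the whole table were 72.6%, 53.4% and 16.2%. Of the 6 Transient members with SOX17, 5 were at Spry4, and all of those but +25.0 kb lay in introns of the neighbouring gene Arhgap26.

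OCT4, SOX2 and ESRRB, the factors of the pluripotency network that are called PTFs here, were bound from d0 at 18 members (20.8% of all regions) and only after Dox, called ectopic, at 4 (16.6%), and 33 members had no PTF (62.6%). The regions with PTFs from d0 were 7 at Spry4, 6 at Fgfr2 and 5 at Etv5. The ectopic regions were 3 at Fgfr2 and 1 at Etv5. Fgf4 and Fgfr1 had no region with a PTF peak.

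Before Dox 28 members were closed (61.3% of all regions), 19 were moderately accessible (31.2%) and 8 were accessible (7.43%), with 5 of the 8 at Spry4. By the histone marks of ES cells, 10 members were active enhancers (11.2%), 9 poised enhancers (14.6%), 10 primed enhancers (16.9%), 8 promoters (6.88%), 17 heterochromatin of either kind (32.5%) and 1 naive (18%). Spry4 had 5 active enhancers and 4 promoter-state regions but 1 heterochromatin region, whereas Fgfr2 had 7 heterochromatin regions and no active enhancer. The 4 promoter-state regions of the Spry4 window all lay in introns of the neighbouring gene Arhgap26, and all were among its 5 accessible regions.

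**Figure D1:**
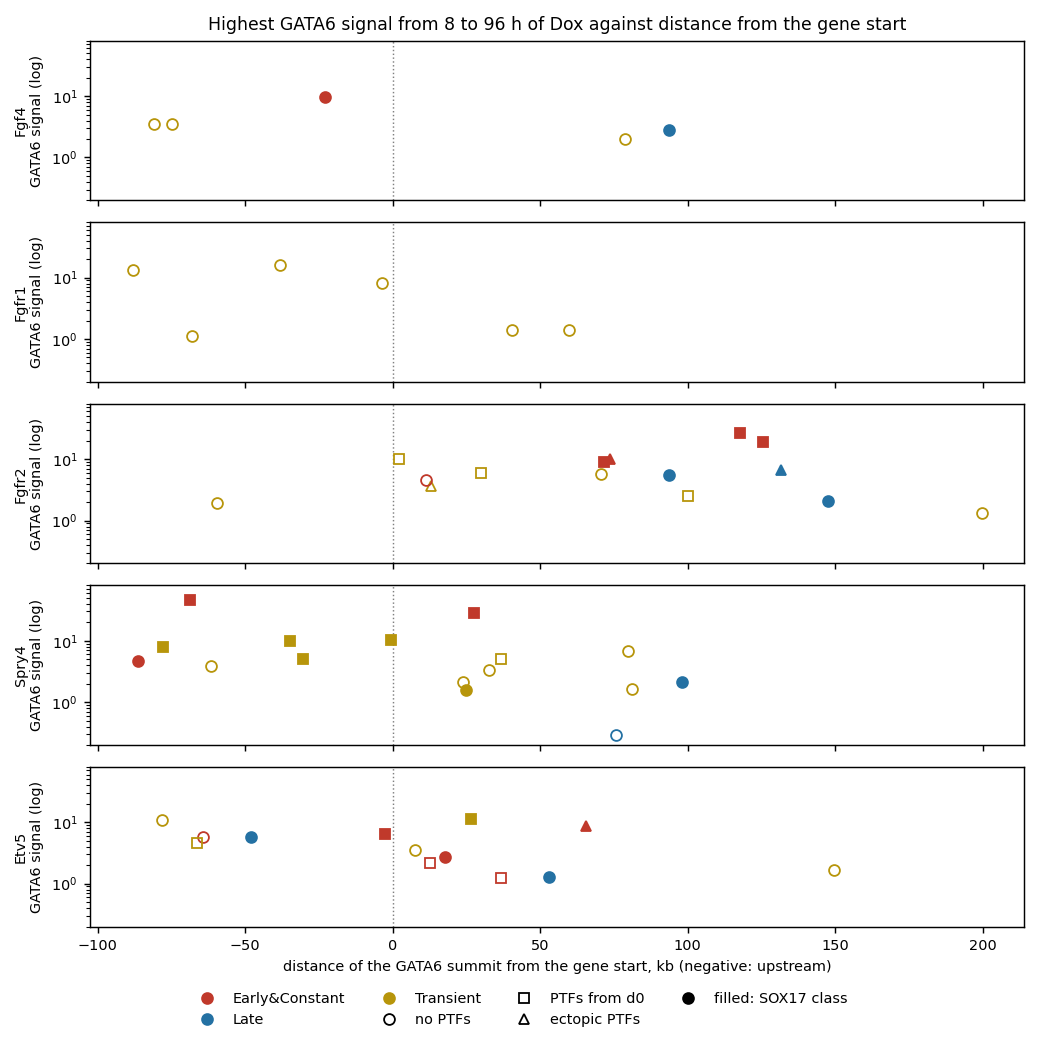
Each symbol is 1 of the 55 regions; the horizontal axis gives the distance of its GATA6 summit from the gene start in kb (negative is upstream) and the vertical axis its highest GATA6 signal from 8 to 96 h of Dox on a log scale. Colour is the GATA6 class, symbol shape the PTF class, and filled symbols are SOX17-bound; the highest symbols are 68.8 kb upstream and 27.5 kb downstream of the Spry4 start (45.7 and 28.0) and 118 and 126 kb downstream of the Fgfr2 start (26.9 and 19.4).

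Fgf4 is a short gene of 3.86 kb on chromosome 7, and no GATA6 summit fell inside it. The summits nearest to it were 22.9 kb upstream and 78.7 kb downstream, which left a stretch of 102 kb that holds all of Fgf4 and Fgf15 without a GATA6 region. All 5 regions had another gene start closer than that of Fgf4. None had a PTF class, and all were in the unchanged class of Oct4 knockdown, though GATA6 at −74.6 kb was 2.60 with control and 1.24 with Oct4 siRNA.

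The Fgf4 −22.9 kb region (chr7:144837431-144838758) lay 121 bp from the start of the neighbouring ligand gene Fgf3. It was Early, SOX17-bound, moderately accessible and in the poised enhancer state, with the highest H3K27me3 signal of all members (4.37, against a median of 0.600 in all regions). Its H3K4me3 signal was 12.0, against a median of 0.420 in all regions. GATA6 signal there was 0.653 at d0, 6.23 at 8 h, 9.53 at 16 h, 5.72 at 24 h, 4.24 at 48 h, 5.26 at 96 h and 6.31 in XEN cells. It thus appeared by 8 h and stayed well above d0. SOX17 signal was 2.41 at d0, 5.64 at 48 h and 5.91 at 96 h, and ATAC signal was 0.525, 1.66 and 1.26.

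The other Fgf4 regions were weaker. The −80.9 kb and −74.6 kb regions had GATA6 signal of 3.54 and 3.49 at 16 h and were back at 0.489 and 0.646 by 96 h. The +78.7 kb region sat 237 bp from the start of Ccnd1, the cyclin D1 gene, in accessible promoter chromatin, and its GATA6 signal did not exceed 1.98. The +93.5 kb region was Late and SOX17-bound: SOX17 signal was 0.536 at d0 and 3.43 at 48 h, and ATAC signal was 0.0768 and 0.680.

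Fgfr1 had only Transient regions, without PTF or SOX17 class, all in the unchanged class of Oct4 knockdown. Only 1 of the 6 lay in the gene, in an intron 40.5 kb from its start. The −88.1 kb region (chr8:25430225-25431214), a closed poised enhancer, had GATA6 signal of 1.14 at d0, 13.3 at 8 h, 10.8 at 16 h, 4.01 at 24 h, 0.888 at 48 h, 0.966 at 96 h and 0.677 in XEN cells. GATA6 was therefore at its d0 level again by 48 h. ATAC signal there was 0.364 at d0, 0.501 at 8 h and 0.138 at 96 h, and SOX2 signal was 3.06, 4.86 and 0.783, so both were below d0 at the end. Despite the closed class, the d0 ATAC value, summed over the region, was above 89.9% of all regions.

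The Fgfr1 −3.57 kb region (chr8:25514829-25515576) was nearest to the gene start and kept more of its signal. GATA6 was 0.653 at d0, 2.94 at 8 h, 8.16 at 16 h, 4.07 at 24 h, 2.97 at 48 h, 3.75 at 96 h and 2.08 in XEN cells. The 96 h value was still above d0 by 1.89 on the log2 scale with the pseudocount described below. Its chromatin was moderately accessible and in the promoter state, with H3K4me3 signal of 13.6, and ATAC signal was 0.403 at d0 and 1.08 at 48 h.

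The remaining Fgfr1 regions were the −38.1 kb region, with GATA6 signal of 15.9 at 16 h and 1.14 at 96 h, and 3 weak ones whose highest signal was between 1.10 and 1.40. One of these had its summit in the untranslated part of Letm2, the gene next to Fgfr1.

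Fgfr2 was the gene with the most regions inside it: 9 of its 15 regions lay in its body of 104 kb, and all 15 had its start as the nearest coding gene start. The regions fell in groups that differed in class. All 7 SOX17-bound regions were Early or Late and lay between 71.7 and 148 kb downstream of the start, towards and past the end of the gene. The 4 regions within 30 kb of the start were not SOX17-bound, and 3 of those were Transient.

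By signal summed over the region, the strongest were a pair of Early regions beyond the end of the gene. They were +126 kb (chr7:130140787-130142079, 1292 bp wide) and +118 kb (chr7:130148494-130149813, 1319 bp wide). Both were closed, in facultative heterochromatin by the authors' histone classes, SOX17-bound and with PTFs from d0. In the ENCODE data their H3K27me3 signal was 0.908 and 0.667, near the table's median of 0.600. Their DNase signal, also from ENCODE, was 0.245 and 0.376, against a median of 0.710. Their ATAC signal at d0, summed over the region, was above 87.2% and 88.2% of all regions.

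At +126 kb GATA6 signal was 0.817 at d0, 12.0 at 8 h, 19.4 at 16 h, 15.3 at 24 h, 15.2 at 48 h, 12.4 at 96 h and 15.0 in XEN cells. At +118 kb it was 0.490 at d0, 10.6 at 8 h, 16.0 at 16 h, 18.8 at 24 h, 22.4 at 48 h, 26.9 at 96 h and 31.2 in XEN cells. The first was highest at 16 h and lower after it, while the second went up at each later time. The 96 h value at +118 kb was above 99.7% of all regions.

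SOX17 followed at both. Its signal at +118 kb was 1.87 at d0, 1.44 at 8 h, 3.70 at 16 h, 12.8 at 24 h, 18.2 at 48 h, 28.0 at 96 h and 19.9 in XEN cells, and at +126 kb it was 1.65 at d0, 8.04 at 24 h and 8.85 at 96 h. ATAC signal at +118 kb was 0.331 at d0, 0.284 at 8 h, 0.663 at 16 h and 2.50 at 48 h. At +118 kb GATA6 thus had a high signal at 8 h, when neither ATAC nor SOX17 signal was above d0.

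The PTF signals at these regions did not move together. OCT4 at +118 kb was 2.93 at d0, 9.32 at 48 h and 7.71 at 96 h, and SOX2 was 3.64, 11.3 and 12.4. ESRRB was 4.94 at d0, 9.51 at 16 h and 1.73 at 96 h. At +126 kb OCT4 was 4.10 at d0, 10.3 at 48 h and 5.23 at 96 h, and ESRRB was 4.63, 4.24 and 1.20. OCT4 and SOX2 were thus higher than d0 in the middle of the time course at both regions, and ESRRB was lower at its end.

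The 3 Fgfr2 regions in the decreased class of Oct4 knockdown were intronic: +73.7 kb (chr7:130192439-130193603), +71.7 kb (chr7:130194537-130195492) and +11.4 kb (chr7:130254988-130255826), all closed and Early. GATA6 at +73.7 kb, an ectopic PTF region in the primed enhancer state, was 0.980 at d0, 8.31 at 8 h, 10.3 at 16 h, 9.61 at 24 h, 9.86 at 48 h, 5.14 at 96 h and 1.78 in XEN cells. At +71.7 kb, with PTFs from d0, it was 0.653, 7.90, 9.07, 6.20, 5.69, 2.61 and 0.710, and at +11.4 kb, without PTF class, it was 0.653, 2.56, 3.65, 3.43, 4.57, 1.56 and 0.912 at the same points. All 3 were below their 48 h value at 96 h and lower still in XEN cells.

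OCT4 signal at these intronic regions went from 2.10 at d0 to 5.87 at 48 h and 2.34 at 96 h at +73.7 kb, from 2.77 to 6.10 and 1.37 at +71.7 kb, and from 0.722 to 2.71 and 1.16 at +11.4 kb. OCT4 was therefore at its highest in the same part of the time course at each. The +11.4 kb region had no PTF class, although its OCT4 signal at 48 h was above d0 by 1.68 on the log2 scale.

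The region nearest to the Fgfr2 start, +2.01 kb in an intron (chr7:130264463-130265154), behaved differently. It was accessible, in the promoter state and Transient, with PTFs from d0, and had 5 OCT4:SOX2 motifs but no GATA6 motif. GATA6 was 1.14 at d0, 10.0 at 8 h, 4.34 at 16 h, 1.55 at 24 h, 1.36 at 48 h, 1.24 at 96 h and 0.502 in XEN cells. OCT4 was 10.6 at d0, 16.0 at 8 h, 6.10 at 16 h, 3.34 at 24 h, 4.94 at 48 h and 1.30 at 96 h, and SOX2 was 12.2, 15.8, 8.40, 2.38, 5.29 and 0.990. GATA6 thus peaked at the time when OCT4 and SOX2 were highest, and all 3 were low at 96 h. ATAC signal moved less, from 0.315 at d0 to 0.244 at 96 h.

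The 3 Late Fgfr2 regions were all SOX17-bound. At +132 kb, an ectopic PTF region in facultative heterochromatin, GATA6 was 0.490 at d0, 0.478 at 8 h and 6.78 at 96 h, and SOX17 was 0.296 at d0 and 7.02 at 96 h. The input library, which has no immunoprecipitation, was also 2.01 times its d0 value there at 96 h. Its part in the difference was not tested. The +93.6 kb region, the only naive member, had GATA6 signal of 0.163 at d0 and 5.44 at 96 h, and +148 kb had 0.490 and 2.05.

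**Figure D2:**
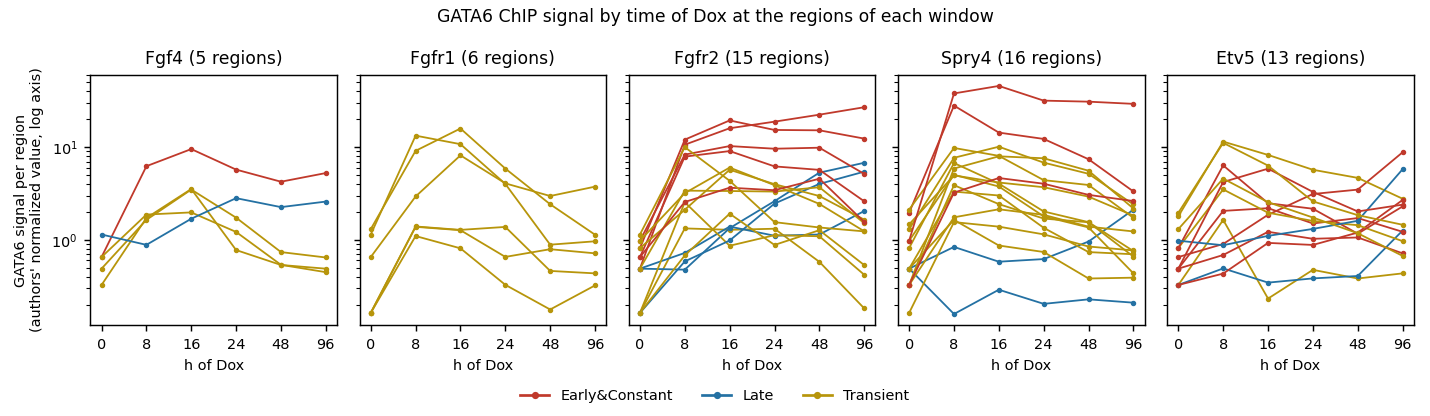
GATA6 ChIP signal of each region (vertical axis, authors' normalized value, log scale) at d0 and 5 times of Dox (horizontal axis, evenly spaced), with 1 panel per gene window and 1 line per region coloured by GATA6 class. The Fgfr1 panel holds Transient lines only, and the 2 highest Fgfr2 lines at 96 h are Early regions at 26.9 and 12.4.

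Spry4 (15.1 kb on chromosome 18) had no summit in its body. Its 16 regions lay on both sides, with 8 that had its start as the nearest coding gene start, and the 7 upstream ones were all inside introns of Arhgap26, the divergent neighbour. The window held 11 Transient, 3 Early and 2 Late regions.

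The Spry4 −68.8 kb region (chr18:38668434-38671001) had the highest GATA6 signal of all 55 members at each time of Dox, with 0.980 at d0, 37.9 at 8 h, 45.7 at 16 h, 31.7 at 24 h, 30.9 at 48 h, 29.3 at 96 h and 71.1 in XEN cells. It was an Early, closed, primed enhancer with SOX17 and PTFs from d0, and the widest member at 2567 bp. Although it was classed as closed, its ATAC signal at d0, summed over the region, was 0.739, above 97.7% of all regions. Its GATA6 value at 8 h was above 99.9% of all regions, and per kb of region above 98.8%. SOX17 was 5.72 at d0, 21.2 at 24 h, 24.5 at 96 h and 42.1 in XEN cells. The start nearest to it was that of Gm19774, 44.2 kb away.

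The +27.5 kb region (chr18:38573265-38574863), past the end of Spry4 and 1598 bp wide, was the second strongest there at 8 h by summed signal. GATA6 was 1.96 at d0, 28.0 at 8 h, 14.3 at 16 h, 12.3 at 24 h, 7.41 at 48 h, 3.33 at 96 h and 3.03 in XEN cells. Although classed as Early, it was far below its 8 h value by the end. SOX17 was 4.68 at d0, 14.8 at 24 h and 2.83 at 96 h, and SOX2 was 9.42, 7.18 and 1.62. It was an active enhancer with a H3K27ac signal of 5.75 and PTFs from d0.

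At the promoter the −0.517 kb region (chr18:38601315-38602338), 247 bp from the start of Arhgap26, was accessible, Transient and SOX17-bound, with PTFs from d0. GATA6 was 1.31 at d0, 7.68 at 8 h, 10.1 at 16 h, 6.81 at 24 h, 5.16 at 48 h, 2.41 at 96 h and 4.93 in XEN cells. ESRRB was 5.07 at d0, 2.26 at 48 h and 0.509 at 96 h, and SOX2 was 10.4, 6.96 and 2.84, whereas ATAC was 1.07 at d0, 1.76 at 48 h and 1.27 at 96 h. PTF signal at the promoter was therefore lower at 96 h than at d0, and ATAC signal was not.

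The +79.8 kb active enhancer (chr18:38521141-38522084) was Transient and in the decreased class of Oct4 knockdown. GATA6 was 0.817 at d0, 6.73 at 8 h, 4.04 at 16 h, 2.03 at 24 h, 1.55 at 48 h, 0.757 at 96 h and 0.739 in XEN cells. It had no PTF class, yet ESRRB was 6.89 at d0, 10.0 at 8 h and 0.770 at 96 h. The weakest member of all lay nearby at +75.6 kb, classed Late, where GATA6 did not exceed 0.290 from 8 to 96 h and was 0.490 at d0.

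Etv5 on chromosome 16 had 6 of its 13 regions in its body of 58.3 kb, and 12 had its start as the nearest coding gene start. Upstream of it, 4 summits lay in Dgkg, a diacylglycerol kinase gene. The region nearest to the Etv5 start, −2.74 kb (chr16:22441948-22442583), was an Early active enhancer with SOX17 and PTFs from d0. GATA6 was 0.817 at d0, 6.35 at 8 h, 2.49 at 16 h, 2.17 at 24 h, 1.17 at 48 h, 2.30 at 96 h and 2.47 in XEN cells, so that after a sharp peak at 8 h a lower signal was left.

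The Etv5 +26.5 kb region (chr16:22411701-22413492), in an intron, had the highest summed GATA6 signal of the window at 8 h, with the −78.1 kb region close to it at 11.1. These were 1791 and 1697 bp wide, whereas the −2.74 kb region, with 6.35 at 8 h, was 635 bp wide. GATA6 at +26.5 kb was 1.80 at d0, 11.5 at 8 h, 8.24 at 16 h, 5.70 at 24 h, 4.66 at 48 h, 2.78 at 96 h and 1.03 in XEN cells. The values that follow are of +26.5 kb. Its best GATA6 motif scored 6.34, the lowest of all members, and lay 819 bp from the summit, while its best ESRRB motif scored 16.5 and lay 12 bp from the summit. PTFs were bound from d0: OCT4 was 10.8 at d0 and 2.74 at 96 h, SOX2 12.0 and 1.51, and ESRRB 9.75 and 1.46. ATAC was 0.877 at d0, 0.792 at 48 h and 0.239 at 96 h, so accessibility and all PTF signals were lower at the end.

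The +65.4 kb region (chr16:22373895-22374486), beyond the gene's end, was Early, closed, SOX17-bound and the only ectopic PTF region of Etv5. GATA6 was 0.653 at d0, 0.904 at 8 h, 1.87 at 16 h, 3.12 at 24 h, 3.48 at 48 h, 8.80 at 96 h and 4.62 in XEN cells. Despite its Early class, its signal went up at each time to 96 h. SOX17 was 0.315 at d0, 2.03 at 24 h, 3.83 at 48 h and 9.11 at 96 h, OCT4 was 0.561, 1.77, 2.40 and 3.02, and ATAC was 0.0703, 0.0774, 0.474 and 0.370. Input signal at 96 h was 2.49 times that at d0, the largest ratio of the members, and its part in these 96 h values was not tested. Input was 0.454 at d0 and 0.488 at 48 h.

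The −47.8 kb region (chr16:22487102-22488045), with its summit in the untranslated part of Dgkg, was Late, closed and SOX17-bound, without PTF class, and the only member that the authors classed as increased after Oct4 knockdown. GATA6 was 0.980 at d0, 0.876 at 8 h, 1.11 at 16 h, 1.31 at 24 h, 1.61 at 48 h, 5.78 at 96 h and 13.4 in XEN cells. SOX17 was 0.639 at d0, 1.78 at 48 h, 5.85 at 96 h and 8.06 in XEN cells. ATAC was 0.0779 at d0, 0.111 at 48 h, 0.246 at 96 h and 0.707 in XEN cells, so all 3 signals were highest in XEN cells.

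To count changes, each value was set against d0 as log2 of the ratio after a small pseudocount was added to both, and 2-fold was taken as a call. GATA6 was called higher at 8 h in 42 members (52.1% of all regions) and at 96 h in 21 (47.4%). The median change of members was 1.53 at 8 h and 0.69 at 96 h on the log2 scale, against 1.06 and 0.93 over all regions. Since the whole table shifted, each column was also divided by its own median, and the calls at 8 h were then 13 members and 14.0% of all regions. Members were wider than other regions (median 731 against 524 bp), and the signal adds up over the width. The part of width in the counts was not tested.

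The 2-fold rule was also applied to the input libraries, with a pseudocount of 0.156 in place of the 0.490 of GATA6. At 8 h 0 members and 0% of all regions were called higher, and at 96 h 1 member and 1.09%. Since the pseudocount and the d0 library differ, these counts do not give the error rate of the GATA6 calls. The 48 h control siRNA libraries are a separate experiment at the same time of Dox. By the study's methods those cells were also nucleofected, and the libraries were read as paired ends. Treatment and sequencing thus enter the difference along with error. GATA6 signal of the control siRNA libraries differed from that of the time course by a median of 0.55 on the log2 scale with an SD of 0.71 over all regions, and members ranged from −1.11 to 1.81. A 2-fold difference is 1 on that scale, but these ratios have no pseudocount, unlike the calls. The d0 GATA6 value is coarse as well, a whole multiple of 0.163 in all regions, and members had between 1 and 13 such steps.

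SOX17 was called higher at 96 h in 15 members (44.7% of all regions), with a median change of −0.11 against 0.79 on the log2 scale. All 15 were among the 24 with the SOX17 class, as were 78.14% of all regions called in this way. The class rests on peaks called in the same SOX17 ChIP-seq, so this overlap is not a separate result. The largest changes were at Etv5 +65.4 kb (4.21), Fgfr2 +132 kb (3.90) and Fgfr2 +118 kb (3.77).

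ATAC signal was called higher at 48 h in 19 members (39.6%) and at 96 h in 15 (33.6%), and lower at 96 h in 8 (8.04%). Fgfr2 accounted for 11 of the 19 at 48 h, while 4 of the 8 that were lower at 96 h were at Spry4 and 3 at Etv5. All 8 of those were Transient, as were 93.8% of all regions called in this way. After division by column medians the counts at 96 h were 6 higher and 18 lower, against 16.3% and 16.5% of all regions, so the balance of the 2 directions turned with the scaling.

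OCT4 was called higher at 48 h in 11 members (14.4% of all regions), 8 of them at Fgfr2, and lower at 96 h in 15 (19.2%), 7 of them at Spry4 and 5 at Etv5. SOX2 was called lower at 96 h in 22 members (24.1%) and ESRRB in 24 (25.2%). Of these, 14 and 16 had PTFs from d0, where the shares over all such regions were 62.6% and 56.0%. The PTF class rests on peaks of the same ChIP-seq, so this overlap is not a separate result either. The 8 Fgfr2 regions with more OCT4 at 48 h had differences between 1.09 and 1.90 on the log2 scale. All lay downstream of the start, as did every region of the window but that at −59.6 kb.

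**Figure D3:**
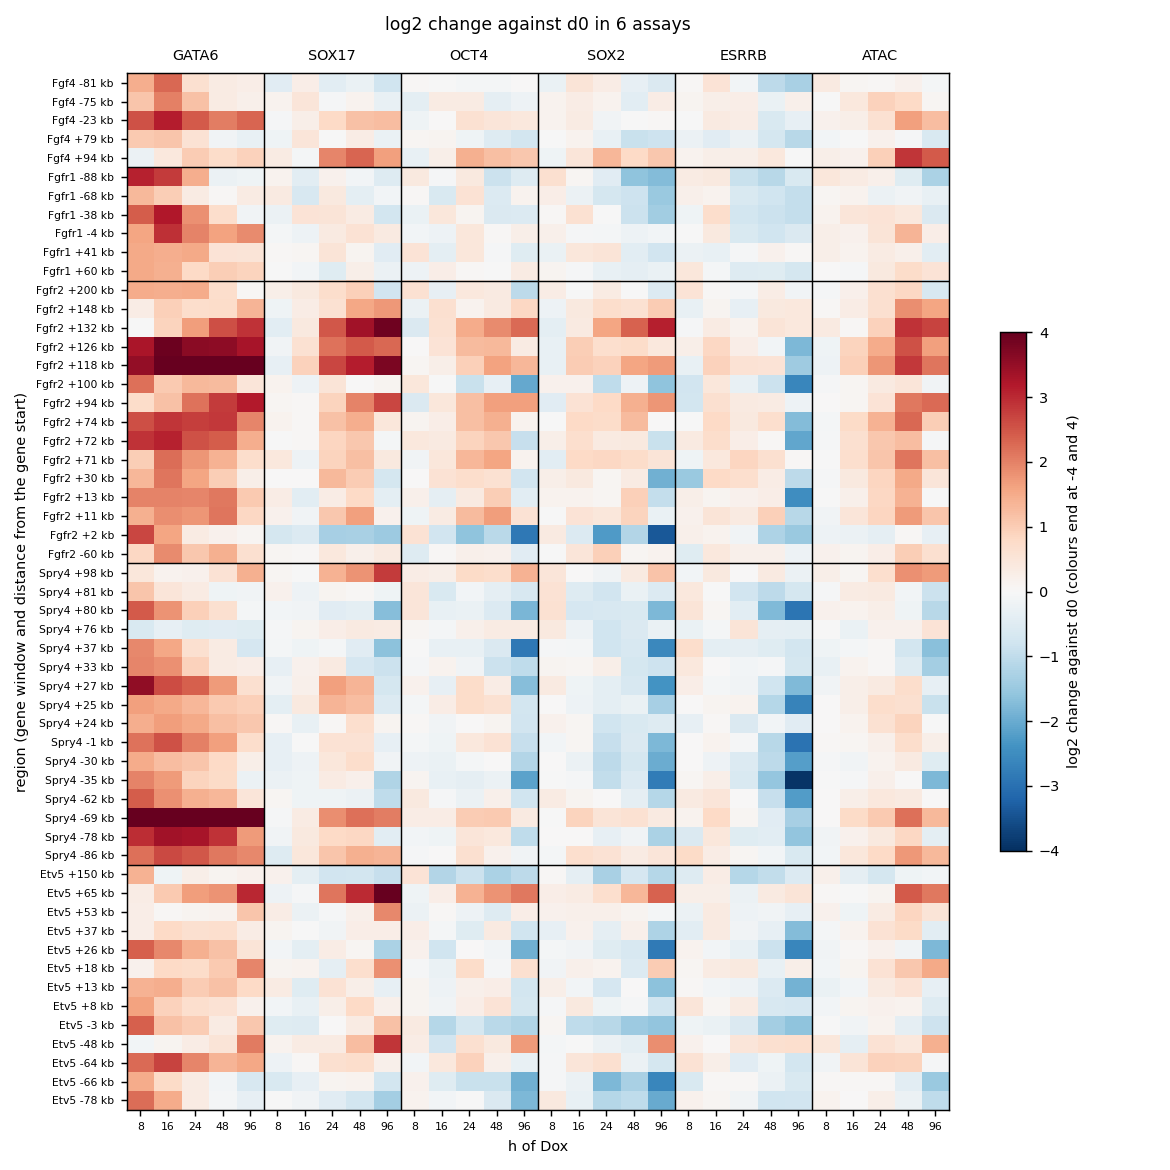
Each row is 1 region, named by gene and distance from the gene start, and each column an assay and time of Dox; colour gives log2 change against d0 with pseudocount, red for higher and blue for lower. Red GATA6 columns start at 8 h, SOX17 and ATAC follow from 24 h at part of the regions, and blue is densest in SOX2 and ESRRB at 96 h.

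**Figure D4:**
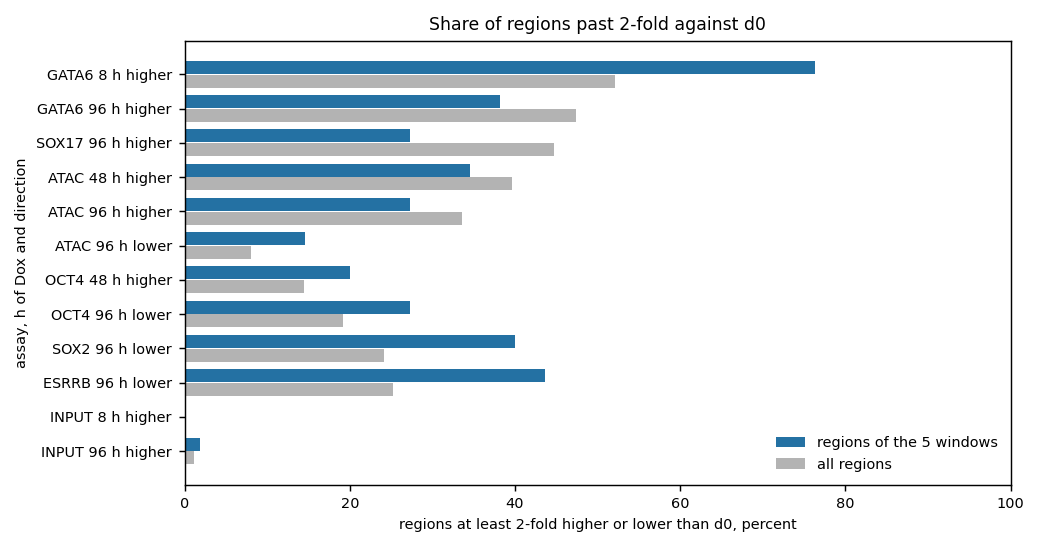
Horizontal bars give the percent of the 55 members (blue) and of all 42403 regions (grey) that were at least 2-fold higher or lower than d0, by assay, h of Dox and direction. Members exceed the table for GATA6 at 8 h (42 regions, 52.1% of the table) and fall short of it for SOX17 at 96 h (15 regions, 44.7% of the table). Input bars show the 2-fold rule on libraries without immunoprecipitation, with a pseudocount of 0.156 in place of the 0.490 of GATA6, and do not give the error rate of the GATA6 bars.

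After siRNA against Oct4, with GATA6 measured at 48 h of Dox, the authors classed GATA6 as decreased at 6 members (6.25% of all regions) and increased at 1 (8.57%). The decreased regions were 3 at Fgfr2, 2 at Spry4 and 1 at Etv5, and 3 of them had PTFs from d0 and 1 ectopic PTFs (44.3% and 33.4% of all decreased regions). GATA6 signal with control and Oct4 siRNA was 14.4 and 8.88 at Fgfr2 +73.7 kb, 9.48 and 4.30 at +71.7 kb and 10.1 and 5.79 at +11.4 kb. At Spry4 it was 12.9 and 7.86 at +27.5 kb and 1.92 and 0.630 at +79.8 kb. At Etv5 +26.5 kb it was 4.44 and 2.18. The signal with Oct4 siRNA was therefore between 1.62 and 3.05 times lower. The authors made the classes from these same GATA6 data, so the direction of change in a class is not a separate result.

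The increased region, Etv5 −47.8 kb, had 2.24 with control and 4.75 with Oct4 siRNA. The strong regions beyond Fgfr2 had 26.6 and 23.5 at +126 kb and 30.6 and 40.2 at +118 kb, and Spry4 −68.8 kb had 54.3 and 59.9, all in the unchanged class. Over the 48 unchanged members the log2 difference ran from −1.29 to 0.82, so single regions with large ratios were also found there.

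**Figure D5:**
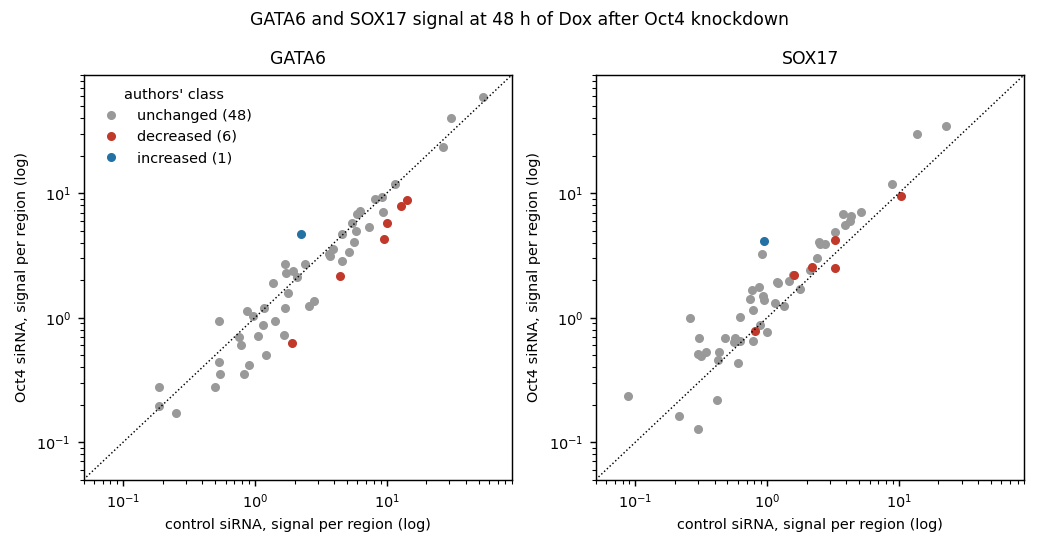
GATA6 (left) and SOX17 (right) signal of the 55 regions at 48 h of Dox with control siRNA (horizontal) and Oct4 siRNA (vertical), both on log axes, coloured by the authors' class of the GATA6 response; the dotted line marks equal signal. The 6 decreased regions lie below the line for GATA6, and the 1 increased region, Etv5 −47.8 kb, lies above it at 2.24 and 4.75. The classes were made from these same GATA6 data.

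XEN cells were compared with 96 h of Dox by the same rule. GATA6 was at least 2-fold higher in XEN cells at 5 members (11.4% of all regions) and at least 2-fold lower at 7 (6.92%). Of the 5, 3 were at Spry4 and 2 at Etv5, and of the 7, 5 were at Fgfr2 and 2 at Etv5. At Fgfr2 the lower regions included the Late ones at +132 kb (6.78 at 96 h and 2.52 in XEN cells) and +93.6 kb (5.44 and 1.75), next to +118 kb with 26.9 and 31.2.

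Other genes of the pathway were taken from a list of 28, counting the regions with a summit within 100 kb of the gene. All but Fgfrl1, a gene for a receptor without a kinase domain, had at least 1, with 242 region counts in all and a median of 8.5 per gene, against 5 over 21774 coding genes, and longer genes have longer windows. Of the 242 counts 86 were Early (35.5% of them, against 28% of all regions), 69 Late (28.5% against 33.6%) and 87 Transient (36.0% against 38.4%). SOX17 was bound at 118 (48.8% against 44.5%). Fgfr4 had 8 regions, all SOX17-bound, and Frs2, which encodes an adaptor of the receptors, had 18 with 11 Early, 7 Late and 0 Transient.

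Neighbouring genes share regions: 4 of the 5 at Fgf3 and all 3 at Fgf15 are members of the Fgf4 window and were counted for each gene. By role, the 6 other ligand genes had 47 region counts, the 4 receptor or co-receptor genes 32, the 9 relay genes 73, the 6 inhibitor genes 65 and the 3 target genes 25. Transient regions made up 52% of those at the targets Etv1, Etv4 and Egr1, 44.6% at the inhibitors and 18.8% at the receptors. Over all regions of the table the share was 38.4%. Counted over all coding genes in the same way, 94.4% had fewer regions than Fgfr2, 95.7% fewer than Spry4, 90.7% fewer than Etv5, 54.5% fewer than Fgfr1 and 46.2% fewer than Fgf4.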

How the data were processed

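The study's ChIP-seq and ATAC-seq reads were, by its methods, aligned by the authors with bowtie2 to mm10, and GATA6 peaks were called on merged replicates and kept when called in each replicate. The deposited signal values are given the unit score here because the file names none. Those of ChIP-seq, ATAC-seq and input are pooled reads per region corrected for library size by the authors. The histone mark and DNase values are ENCODE data, and whether they are on the same scale was not tested. The motif score is likewise the authors' deposited match score of the best hit. The deposited table has 105 columns, of which 89 were used, 59 of them signal. Their names match no MNase library, so they were read as the authors' values without replicates.

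Regions were assigned to windows by summit. Changes are log2((value + p)/(d0 + p)), where p was 0.490 for GATA6 (the median at d0) and the 5th percentile of the assay's values otherwise (0.0208 for ATAC to 0.196 for SOX2). The code of the fold rule was tested on simulated data without noise, copies of the d0 columns with 200 of 42403 regions raised for GATA6 at 8 h: 200 were called, with 0 other calls. No difference between groups was tested, since each assay and time has 1 value. Gene limits and places are from the RefSeq annotation of GRCm38.p6. Motif coordinates were checked against that genome: over 5306 full-length best GATA6 motifs on chromosomes 7, 8 and 16, each of 4112 distinct sequences had 1 score.

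Regions described in full were, at each gene, the one nearest to the gene start, those with the highest GATA6 signal at 8 h and at 96 h, up to 3 with a class of Oct4 knockdown and up to 3 with PTFs, by GATA6 signal. A few others were named after their values were seen. The values of 1 gene of the pathway list are not reported here. The members and gene lists were chosen with earlier results of these data known. The comparison of XEN cells with 96 h and the counts of input past 2-fold were added after seeing the data. Python 3.11.15, numpy 2.4.6, pandas 2.3.3 and matplotlib 3.10.9 were used.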

Additional observations from a re-analysis of the deposited data

How the results depend on the processing

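Windows shorter by 50 kb at each end held 35 regions in place of 55, with 11.4% ectopic PTF regions in place of 7.27%, and left the shares of Early, Late, Transient, SOX17-bound and PTF from d0 regions within 1.5 times. The other classes were not recounted. With a pseudocount 4 times larger, GATA6 was called higher in 26 members at 8 h (26.0% of all regions) and 12 at 96 h (22.7%), ATAC lower at 96 h in 5 (4.21%) and OCT4 lower at 96 h in 9 (12.1%). With each column divided by its median, the members called higher were 13 and 7 for GATA6 at 8 and 96 h (14.0% and 15.8% of all regions), 9 for SOX17 at 96 h (23.6%), 9 and 6 for ATAC at 48 and 96 h (12.6% and 16.3%) and 7 for OCT4 at 48 h (7.45%), and those called lower for ATAC at 96 h were 18 (16.5%). A best GATA6 motif starting within 100 bp of the summit was found in 56.4% of members in place of 92.7%, and in 62.6% of all regions. Of 102 alternative values 62 stayed within the limit set for them. Keeping only regions whose nearest coding gene start is the named gene left 37 members, of which 0 were at Fgf4 and 2 at Fgfr1. No paired analysis was possible because the result comes from no test and each assay and time has 1 deposited value. The table holds no read depths, and GATA6 values of weak regions at d0 rest on 1 to 3 steps of the column.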

Other observations

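SOX17 signal after Oct4 knockdown was mostly higher than with control siRNA at the members, with a median ratio of 1.41 (log2 0.49, against 0.64 over all regions). At the 6 regions with decreased GATA6 the SOX17 log2 difference ran from −0.39 to 0.45. At Etv5 −47.8 kb, where GATA6 was increased, SOX17 signal was 0.947 with control and 4.12 with Oct4 siRNA. At Etv5 −2.74 kb, in the unchanged class, SOX17 was 0.923 and 3.27 while GATA6 was 2.42 and 2.69.

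GATA6 signal summed over a region favours wide regions. Where a region is called the strongest of its window, this is by summed signal, and narrower regions can rank higher per kb. Ranked per kb, the highest 8 h region moved from above 88.8% to above 71% of all regions at Fgf4 and from 96% to 85.5% at Etv5, and less at the other genes.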
